A study of Mus musculus with 84 samples.

Results

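The genes Piezo1, Piezo2, Tmem63a, Tmem63b, Tmem63c and Tmem150c were read in single mouse neurons, the vagal sensory neurons whose axons reach the airways. The 6 genes were chosen by name as channels, or proposed channels, gated by mechanical force, and all 6 had a row among the 50686 genes counted. The neurons came from C57BL/6 mice, were marked by the retrograde tracer DiI (2%) taken up in the airways, and were picked one at a time before their mRNA was amplified and sequenced. There were 84 neurons in 1 group, with no treatment, no age and no animal given in the labels, and 72 of them with at least 5000000 counts were used. Since nothing says which neurons shared an animal, the values below are descriptions, with no p-value, and the intervals on shares are exact (Clopper-Pearson) 95% intervals that cover counting error only.

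Stretch of the airway wall is signalled to the brain stem largely by myelinated vagal neurons, and in mice the ion channel Piezo2 is known to be needed for the vagal response to lung inflation. Piezo1 is its close relative, known for sensing flow and pressure in endothelium and red blood cells and, with Piezo2, for the mouse baroreflex. The Tmem63 genes encode relatives of the plant OSCA channels that open under membrane tension. Tmem150c encodes Tentonin 3, which has been described in mouse sensory neurons with slowly adapting mechanically evoked currents, though whether it forms a pore is debated. Vagal sensory neurons arise from the nodose ganglion, whose airway neurons commonly carry the ATP-gated channel P2rx2, or from the jugular ganglion, whose neurons are marked by the transcription factor Prdm12.

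Piezo2 and Tmem63b were the widely found members, Tmem63c and Tmem150c were found in a minority of neurons, and Tmem63a and Piezo1 in very few. Detection here means a level of at least 10 CPM, where CPM is the count scaled to a sum of 1000000 in each neuron. Tmem63b was detected in 40 of 72 neurons (55.6%, interval 43.4 to 67.3%) and Piezo2 in 34 (47.2%, interval 35.3 to 59.3%). Tmem63c was detected in 22 neurons (30.6%, interval 20.2 to 42.5%) and Tmem150c in 20 (27.8%, interval 17.9 to 39.6%). The intervals of Tmem63b and Piezo2 overlapped, as did those of Tmem63c and Tmem150c. Tmem63a was detected in 5 neurons (6.94%, interval 2.29 to 15.5%) and Piezo1 in 2 (2.78%, interval 0.338 to 9.68%). Among the 16068 genes detected in any of these neurons, 27.8% were found in more neurons than Tmem63b, 35.2% in more than Piezo2 and 77.7% in more than Piezo1.

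In the neurons that had it, Piezo2 mostly stood above 100 CPM. Its level ran from 0 to 824 CPM with a median of 6.60, and its median over the 34 neurons that had it was 247 CPM. The highest values were 824 CPM in neuron AM005, 673 in AM011 and 600.1 in AM059. Few neurons lay near the threshold: 26 neurons had at least 100 CPM, and on either side of 10 CPM the nearest values were 11.6 and 9.17 CPM. Tmem63b was spread more evenly, from 0 to 74.99 CPM with a median of 18.9, and its median where detected was 32.0 CPM. Tmem63c reached 89.6 CPM in AM075 and Tmem150c, on chromosome 5 (100077872 to 100159808, minus strand, GRCm38), reached 61.0 CPM in AM210, with medians where detected of 19.9 and 17.7 CPM.

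Levels of different genes were set against each other per length of annotated exon. This takes reads to cover each transcript evenly, which was not tested. Averaged over all 72 neurons, the mean level per kb of exon was 7.61 CPM for Piezo2, 3.8955 for Tmem63b, 2.19999 for Tmem63c, 1.53 for Tmem150c, 0.713 for Tmem63a and 0.0973 for Piezo1. In neurons with the gene, the median level per kb was 14.4 CPM for Piezo2 (quartiles 6.83 and 24.5) and 6.27 for Tmem63b (quartiles 4.37 and 8.25). It was 4.87 CPM per kb for Tmem63c (quartiles 4.21 and 5.90) and 3.18 for Tmem150c (quartiles 2.71 and 6.00), and each gene's quartiles overlapped those of its neighbour in this order. A shorter transcript needs a higher level per kb to reach 10 CPM, so the order where detected also depends on length.

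**Figure D1:**
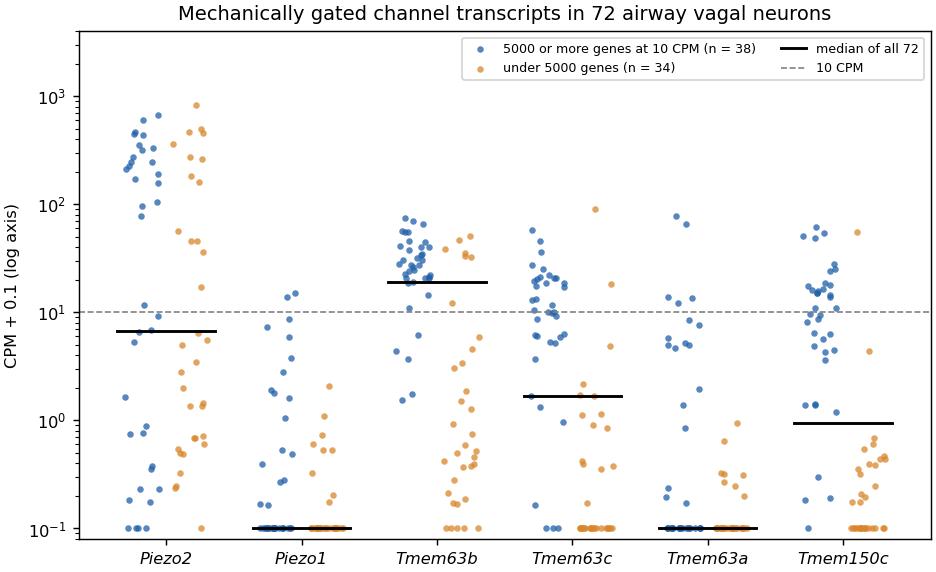
Level of each member in each of the 72 neurons, as CPM + 0.1 on a log axis. Blue points are neurons with 5000 or more genes at 10 CPM and orange points the others, the black line is the median of all 72 and the dashed line is 10 CPM. Piezo2 reached well above 100 CPM in both kinds of neuron, while among the blue points Tmem63b lay above the line in 33 of 38, Tmem63c in 20 and Tmem150c in 19.

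The neurons differed in how many genes were detected in them, and most members moved with that number. Totals of the 72 neurons ran from 6732279 to 20668832 counts, so that 10 CPM was 67.3 counts in the shallowest, and 3 counts, the limit that a count of 0 allows, was between 0.145 and 0.446 CPM. The number of genes at 10 CPM ran from 841 to 8870 per neuron with a median of 5855.5, and 38 neurons had 5000 or more. In 71 of 72 neurons at least 50% of 10 pan-neuronal genes were detected. Neuron identifiers fell into 3 runs separated by gaps, AM002 to AM023, AM059 to AM086 and AM210 to AM304, holding 16, 11 and 45 of the 72 neurons, with median gene numbers of 7639.5, 3793 and 5231. The labels do not say what these runs are.

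Tmem63b was detected in 33 of the 38 neurons with 5000 or more genes (86.8%) and in 7 of the 34 others (20.6%). Tmem63c was detected in 20 against 2 and Tmem150c in 19 against 1, and all 5 neurons with Tmem63a and both with Piezo1 had 5000 or more genes. A difference above 40 percentage points in this split was found for 53.8% of the 11351 genes detected in at least 5 neurons, which Tmem63b, Tmem63c and Tmem150c shared. Piezo2 was detected in 20 of 38 (52.6%) against 14 of 34 (41.2%), a difference of 11.5 points, where the median gene differed by 43.2 points. Across the 72 neurons, the correlation of log2(CPM + 10) with the log2 of gene number was 0.71 for Tmem63b and 0.22 for Piezo2. Correlations across neurons share this source of variation and are given as descriptions. The part of gene number in the results below was not tested. Most comparisons are therefore given over all 72 neurons and over the 38 with 5000 or more genes.

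Piezo1 was rarely detected. Its detected levels were 13.7 CPM in AM022 and 14.9 CPM in AM300, the next highest level was 8.60 CPM in AM070, and 27 neurons had at least 1 count. Piezo1 lies on chromosome 8 (122481698 to 122551329, minus strand, GRCm38) and shares 2441 exon bases with Ctu2, a gene of tRNA modification on the opposite strand. How strand was treated in counting is not stated, so reads from the shared bases cannot be told apart; Ctu2 stood at 7.33 CPM in AM022 and 6.13 CPM in AM300. Of 7 endothelial genes, Pecam1, Cdh5 and Tie1 were detected in 0 of 72 neurons, Kdr in 2, Cldn5 in 3, Flt1 in 11 and Egfl7 in 50. The summed level of the 7 was 66.2 CPM in AM022 and 151 CPM in AM300, of which 1 gene was detected in each, against a range of 0 to 516 CPM over all neurons with 16 neurons above AM300. The summed level of 5 erythrocyte genes was 37.2 CPM in AM022, with 2 genes detected, and 19.8 CPM in AM300, with 1 gene detected. Over all neurons that sum had a median of 3.76 CPM and a maximum of 147 CPM, with 6 neurons above AM022 and 17 above AM300. The part of other cells in the Piezo1 reads was not tested.

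The 3 Tmem63 genes differed from each other in how widely they were found, and the bases before their start sites differ as well. Tmem63b lies on chromosome 17 (45660171 to 45686905, minus strand) and Tmem63c on chromosome 12 (87021340 to 87090043, plus strand), both GRCm38. Their 250 upstream bases, from RefSeq's GRCm38.p6 annotation, are printed because they are the widest and the second widest found of the family. Tmem63b shares 106 exon bases with the mitochondrial ribosome gene Mrpl14 on the opposite strand, which was detected in 52 neurons, and reads from those bases cannot be told apart. Tmem63b is shown for chr17:45686219-45686468 on the minus strand and Tmem63c, at its first annotated start, for chr12:87021090-87021339 on the plus strand. The Tmem63b stretch is upstream of the RefSeq start but lies inside the gene span given above, which is from GENCODE. Capitals mark the motif CG, which reads the same on both strands.
Tmem63b: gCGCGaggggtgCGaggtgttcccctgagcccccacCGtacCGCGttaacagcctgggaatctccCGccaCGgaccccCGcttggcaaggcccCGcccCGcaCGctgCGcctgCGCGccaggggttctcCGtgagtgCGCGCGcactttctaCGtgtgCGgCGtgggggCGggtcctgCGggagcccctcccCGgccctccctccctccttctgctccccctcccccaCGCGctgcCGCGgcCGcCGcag
Tmem63c: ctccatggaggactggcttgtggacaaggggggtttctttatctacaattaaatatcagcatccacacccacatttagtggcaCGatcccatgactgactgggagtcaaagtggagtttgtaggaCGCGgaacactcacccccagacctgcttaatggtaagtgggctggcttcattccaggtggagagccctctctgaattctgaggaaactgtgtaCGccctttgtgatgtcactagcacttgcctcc
The Tmem63b stretch holds 31 CG and the Tmem63c stretch holds 4. Of 32851 mouse promoters of this length, 5.19% hold at least 31 and 62.2% hold at least 4. The stretch of Tmem63a, the least found of the family, holds 23 CG, so the number of CG did not follow the order in which the 3 genes were found. No methylation was measured.

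Tmem63a, on chromosome 1 (180942344 to 180975112, plus strand), was a rare transcript found in neurons that had other members too. It was detected at 77.6 CPM in AM065, 65.7 in AM221, 13.8 in AM281, 13.4 in AM021 and 12.2 in AM020. The lowest 3 of these lie just above the threshold, and the next level was 8.41 CPM. All 5 neurons had Tmem63b, 4 had Tmem63c, 4 had Tmem150c, and 1, AM020, had Piezo2 at 11.6 CPM. All 5 also had P2rx2, at 23.6 to 254.8 CPM, which was detected in 26 of the 38 neurons with 5000 or more genes.

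Combinations of members followed the number of genes detected. No member was detected in 18 of 72 neurons, 1 in 15, 2 in 18, 3 in 13, 4 in 7 and 5 in 1, and none had all 6. The neurons with no member had a median of 2243.5 genes and only 1 of them had 5000 or more, whereas all 7 with 4 members had 7006 or more. Of 18 patterns seen, the most frequent after no member were Piezo2 alone in 10 neurons and Piezo2 with Tmem63b in 9. Piezo2 alone was a pattern of neurons with few genes, with a median of 3037, and it included AM005 at 824 CPM and AM002 at 468 CPM. In AM002, with 1102 genes at 10 CPM, none of the other 5 members had a single count.

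Piezo2 and Tmem63b were detected together in 22 neurons, which is 64.7% of those with Piezo2 and 55% of those with Tmem63b. Piezo2 without Tmem63b was seen in 12 neurons, Tmem63b without Piezo2 in 18, and neither in 20. Nearly all neurons with Tmem63c (86.4%) or Tmem150c (95%) had Tmem63b as well. Among the 38 neurons with 5000 or more genes, Tmem63b was detected in 90% of the 20 with Piezo2 and in 15 of the 18 without it. The correlation of Tmem63b with Tmem63c was 0.39 over 72 neurons and 0.07 over these 38, and that of Tmem63c with Tmem150c was 0.41 and 0.19. Piezo2 and Tmem63a had a correlation of -0.40 over the 38 neurons, with Tmem63a detected in only 5 of them.

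**Figure D2:**
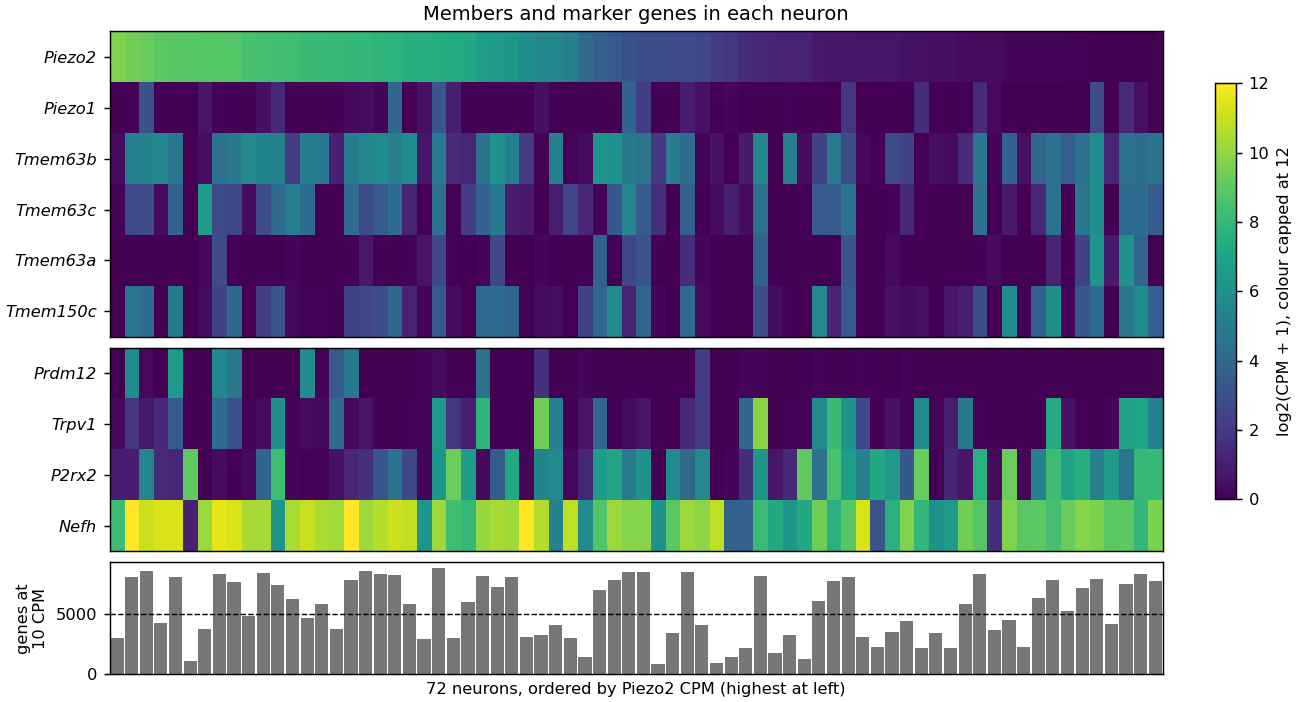
Each column is 1 of the 72 neurons, ordered by Piezo2. The upper panels give log2(CPM + 1) of the 6 members and of Prdm12, Trpv1, P2rx2 and Nefh as colour, and the bars give the number of genes at 10 CPM, with a dashed line at 5000. The 7 neurons with Prdm12 at 10 CPM or more all lie among those with Piezo2. Tmem63b, Tmem63c and Tmem150c are mostly dark where the bars are short, being detected in 7, 2 and 1 of the 34 neurons under 5000 genes.

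Every neuron with Prdm12 at 10 CPM or more had Piezo2 and Tmem63b. Just under that level, AM086 had Prdm12 at 9.13 CPM, Piezo2 at 264.5 CPM and Tmem63b at only 1.17 CPM. Prdm12 was detected in 7 of 72 neurons, and Piezo2 in those 7 stood at 104, 247.8, 274, 439.6, 449, 470.7 and 673 CPM. In the 65 others, Piezo2 ran from 0 to 824 CPM with a median of 5.27 and was detected in 27 (41.5%). The 7 values all lay above that median but within the range of the others. The difference in share was 58.5 points (interval from those of both shares 15.5 to 70.6), and over all genes 18.7% were higher by 40 points in the Prdm12 neurons. Among neurons with 5000 or more genes it was 6 of 6 against 14 of 32, a difference of 56.25 points, where 4.37% of all genes were higher and 1.92% lower by 40 points. Within the identifier runs, Piezo2 was detected in 2 of 2 against 7 of 14 in the first and in 5 of 5 against 12 of 40 in the last, and the middle run had no Prdm12 neuron but Piezo2 in 8 of 11.

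For the other members the Prdm12 difference stayed under 40 points among neurons with 5000 or more genes. Tmem63b was detected in 7 of 7 Prdm12 neurons, between 20.7 and 34.9 CPM, and in 33 of 65 others, a difference of 49.2 points. Among neurons with 5000 or more genes this was 6 of 6 against 27 of 32, a difference of 15.6 points, and the medians were 25.98 and 27.9 CPM. Tmem63c was detected in 4 of 7 and 18 of 65, and in 3 of 6 and 17 of 32 with 5000 or more genes. Tmem150c was detected in 4 of 7 and 16 of 65, and Tmem63a and Piezo1 in 0 of 7 against 5 and 2 of 65. With 5000 or more genes, Tmem150c was detected in 4 of 6 and 15 of 32, a difference of 19.8 points. Tmem63a and Piezo1 were then in 0 of 6 against 5 and 2 of 32. The median gene number was 8091 with Prdm12 and 4870 without.

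Trpv1, the heat- and capsaicin-gated channel of nociceptors, did not divide the members by 40 points. Trpv1 was detected in 19 neurons, of which 8 had Piezo2, against 26 of the 53 others. The 8 neurons had Piezo2 at 11.6, 45.3, 45.5, 104, 173, 265, 332 and 449 CPM, so that high Piezo2 did occur with Trpv1, and 2 of them, AM296 and AM237, also had Prdm12. Among neurons with 5000 or more genes, Piezo2 was detected in 5 of 14 with Trpv1 and in 15 of 24 without, a difference of -26.8 points, with medians of 0.721 and 173 CPM. By comparison 0.934% of genes were higher and 0.907% lower by 40 points there, and 0.987% and 0.0176% over all 72 neurons. Tmem63a was detected in 4 of 19 neurons with Trpv1 and 1 of 53 without, and in 4 of 14 and 1 of 24 with 5000 or more genes, differences of 19.2 and 24.4 points. Tmem63c was detected in 9 of 19 and 13 of 53, Tmem150c in 7 and 13, and Tmem63b in 12 and 28. With 5000 or more genes, Tmem63c was detected in 9 of 14 and 11 of 24, Tmem150c in 7 and 12, and Tmem63b in 11 and 22. The difference for Tmem63c was 22.8 points over 72 neurons and 18.5 over these 38. It was 12.3 and 0 for Tmem150c, and 10.3 and -13.1 for Tmem63b. The median gene number was 7541 with Trpv1 and 4500 without.

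**Figure D3:**
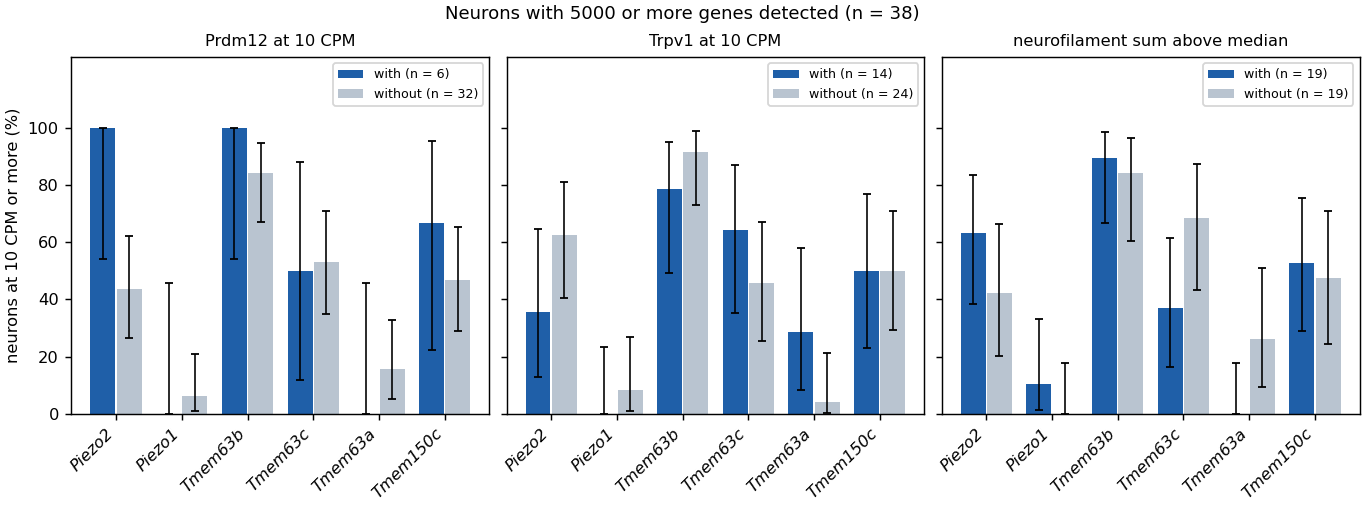
Share of neurons with each member, in the 38 neurons with 5000 or more genes, split by Prdm12, by Trpv1 and by the median of the summed neurofilament level. Bars are percentages and error lines exact 95% intervals for counting error. Piezo2 in 6 of 6 Prdm12 neurons against 14 of 32 is the only difference above 40 points.

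The neurofilament genes Nefl, Nefm and Nefh, whose products fill the large axons of myelinated neurons, differed in how far they went with Piezo2, with Nefh closest. Among the 38 neurons with 5000 or more genes, Nefh stood at 77.1 to 6020 CPM, median 1408, in the 20 neurons with Piezo2, and at 194 to 1184 CPM, median 636, in the 18 without. The ranges overlapped, but 16 of the 20 values with Piezo2 lay above the highest value without it. Nefl did not divide them, with medians of 3730 and 3733 CPM. Over these 38 neurons the correlation of Piezo2 with Nefh was 0.59 (Spearman 0.71), with Nefm 0.45 and with Nefl 0.25, and over all 72 neurons it was 0.39, 0.28 and 0.01. The levels of Nefh were less separated over all 72 neurons. Its medians there were 1386 CPM with Piezo2 (range 1.14 to 6680) and 474 CPM without (range 2.01 to 2449). Only 7 of the 34 values with Piezo2 lay above the highest value without it.

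The correlation with Nefh depended on the neurons included. Among the 38, it was 0.42 (Spearman 0.57) without the 6 Prdm12 neurons and 0.75 (Spearman 0.79) without the 2 neurons farthest from the median of Nefh. Within the first run of identifiers (11 neurons) it was 0.36 (Spearman 0.65), within the last (23 neurons) 0.73 (Spearman 0.71), and the middle run held too few. Over all 72 neurons the Pearson correlation within the 3 runs was -0.05, 0.23 and 0.57, and the Spearman correlation 0.18, 0.52 and 0.52. Without the last run the Pearson correlation fell from 0.39 to 0.03 and the Spearman correlation from 0.48 to 0.28, so the Pearson value over 72 neurons depended on that run more than the rank value did.

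Split at the median of the 3 genes' summed level, no member differed by 40 points. Piezo2 was detected in 18 of 36 neurons above the median and 16 of 36 below it, and in 12 and 8 of 19 with 5000 or more genes. In 4 bins of rising summed level among the latter, Piezo2 was detected in 3 of 10, 5 of 10, 5 of 9 and 7 of 9, and Prdm12 in 1, 0, 1 and 4. Tmem63a was detected in 0 of 36 above the median and 5 of 36 below it, and Tmem63c in 8 and 14, or 7 and 13 of 19 with 5000 or more genes. Genes differing by 40 points in this split were rare, 0% higher and 0.00881% lower over 72 neurons, and 0.264% higher and 0.714% lower among neurons with 5000 or more genes.

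Neurons with Piezo2 more often had Ntrk3 and, among those with 5000 or more genes, less often had P2rx2, by more than 40 points. Ntrk3, the receptor for neurotrophin 3 that marks proprioceptors and large-fibre mechanoreceptors in mouse dorsal root ganglia, was detected in 23 of 34 neurons with Piezo2 and 3 of 38 without. Its medians were 104 and 0.545 CPM, and the difference of 59.8 points compares with 0.317% of genes higher by 40 points. Among neurons with 5000 or more genes it was 16 of 20 against 2 of 18, a difference of 68.9 points, and 67.5 points without the Prdm12 neurons. Scn1a, a sodium channel of A-fibre neurons, was in 20 of 34 against 6 of 38, but in 13 of 20 against 6 of 18 with 5000 or more genes. The remaining 10 genes of the A-fibre list did not pass 40 points.

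P2rx2 was detected in 9 of 20 neurons with Piezo2 and 17 of 18 without, among those with 5000 or more genes, at medians of 6.60 and 93.2 CPM. The difference was -49.4 points, where 0.414% of genes were lower by 40 points and 0.802% higher. It was -30.2 points over all 72 neurons and also -30.2 points among those with 5000 or more genes without Prdm12. Read the other way, Piezo2 was detected in 11 of 12 neurons without P2rx2 and in 9 of 26 with it. The 5 of these 12 with neither Prdm12 nor Trpv1 all had Piezo2, at 191 to 317 CPM. Over all 72 neurons, Piezo2 was detected in 21 of 33 without P2rx2 and in 13 of 39 with it. Of the 23 neurons with none of P2rx2, Prdm12 and Trpv1 it was detected in 13 (56.5%), from 0.139 CPM upward over the 23. The correlation of the 2 genes over the 38 neurons was -0.58, and -0.53 and -0.67 within the first and last run. These classes by P2rx2 were chosen after the values were seen.

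**Figure D4:**
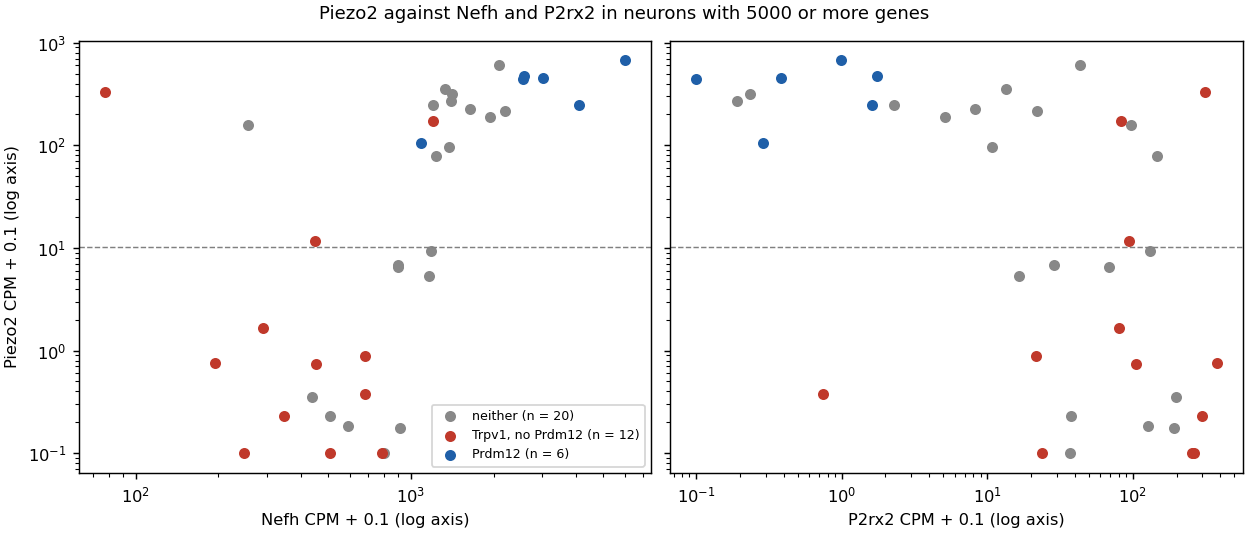
Piezo2 against Nefh (left) and P2rx2 (right) in the 38 neurons with 5000 or more genes, as CPM + 0.1 on log axes, coloured by Prdm12 and Trpv1 with a dashed line at 10 CPM. Of the 20 neurons above the line, 6 have Prdm12, and the 18 below it have Nefh of 194 to 1184 CPM and, in 17 of them, P2rx2.

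Markers of glia were read in the same neurons. The summed level of 7 satellite glia genes had medians of 1812 CPM with Piezo2 (range 95.6 to 10859) and 1978 without (range 30.7 to 56626), and none of the 7 genes differed by 40 points. The summed level of 5 Schwann cell genes had medians of 794 and 468 CPM, and Mag was detected in 0 of 72 neurons. The part of glial RNA in the Piezo2 results was not tested.

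Genes whose levels most resembled Piezo2, by the correlation of log2(CPM + 10) across neurons, began with Ntrk3. Over 72 neurons they were Ntrk3 (0.68), Sv2b, a synaptic vesicle protein (0.67), Gm765 (0.66), Ly6h (0.65) and Cntnap1, a protein of the paranodal junction of myelinated axons (0.63). Over the 38 neurons with 5000 or more genes they included Cntnap1 (0.82), the calcium release channel Ryr2 (0.79), Cpne6 (0.77) and Tmem56 (0.77). The median correlation with Piezo2 over 9914 genes was 0.04 in that set.

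The genes most like Tmem63b over 72 neurons were Zmiz2 (0.80), Dop1b, Caskin1, Ezh1 and Ppp5c. The median correlation with Tmem63b over 9913 genes was 0.37, against 0.13 over the 38 neurons. Over the 38 neurons they included Otud4, Eif4b and Chtop. Those most like Tmem63c were Pim2 (0.77), Aph1b, Frmd4b, Washc5 and Mcat, and over the 38 neurons Ltn1 (0.70), Srsf12, Cnpy4, Gna12 and Adgra3. Those most like Tmem150c were Ckap4 (0.72), Gdpd5, Nudt13, Ppp2r3a and Bag2, and then Fkbp9 (0.64), Ephx2, Ppt1, Smarce1 and Vps13a. For Tmem63a, which rests on 5 neurons, the leukotriene receptor Cysltr2 (0.68 and 0.64) was in both sets and was detected in 5 of 5 of its neurons and 11 in all. The likeness of Piezo1 rests on 2 neurons and is not listed.

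Partners and other proposed channels of mechanical sensing were read beside the members. Of 7 regulators of Piezo channels, Anxa6 was detected in 60 of 72 neurons, Atp2a2 in 58, Mtmr2 in 47, Mdfic in 42 and Stom in 28. Stoml3, a membrane protein that sensitises Piezo channels in mouse, was detected in 0 of 72 (interval 0 to 4.99%) and reached 8.44 CPM at most; Mdfi was at 0 of 72 as well. None of the 7 differed by 40 points with Piezo2. Among neurons with 5000 or more genes, Stom was detected in 17 of 20 with Tmem63c and 8 of 18 without, a difference of 40.6 points. In that split 0.846% of all genes were higher by 40 points. Of the 109 genes of the lists only Stom passed 40 points there, a share near that of all genes.

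The hair cell transduction channel genes were hardly found. Tmc1 was detected in 1 neuron and Tmc2 in 0 of 72. Of their partners, Cib2 was detected in 42 neurons, Lhfpl5 in 40, Pcdh15 in 10 and Tmie in 3. The other Tmc genes read were detected in 31 neurons (Tmc7), 23 (Tmc6), 5 (Tmc3), 5 (Tmc5), 1 (Tmc4) and 0 (Tmc8). Among other channels and proteins tied to mechanical responses, the potassium channel Kcnk2 was detected in 40 neurons, Kcnk10 in 6, Kcnk4 in 4 and Trpv4 in 0. The volume-regulated channel subunit Lrrc8a was detected in 51, Tmem120a in 43, Pkd2 in 18 and Tmem87a in 4. Of the relatives of Tmem150c, Tmem150a was detected in 2 neurons and Tmem150b in 0.

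Among neurons with 5000 or more genes, the 5 with Tmem63a had Trpv1 in 4 and the 33 others in 10, a difference of 49.7 points. This is the same overlap of 4 neurons that gave 24.4 points when split by Trpv1, so passing 40 points depended on the direction of the split. The irritant-gated channel Trpa1 was in 3 of 5 and 6 of 33, and Kcnk10 in 3 of 5 and 2 of 33, differences of 41.8 and 53.9 points. Tmc6, a relative of the hair cell channel genes, was in 1 of 5 and 21 of 33, a difference of -43.6 points. By comparison 2.02% of genes were higher and 1.59% lower by 40 points in this split. Of the 109 genes of the lists, only those named here passed 40 points, a share near that of all genes. Each share with Tmem63a rests on 5 neurons. No gene of the lists differed by 40 points with Tmem150c among neurons with 5000 or more genes. There 0.3% of all genes were higher and 0.0176% lower by 40 points. With Tmem63b, detected in 33 of 38 such neurons, 9.26% of all genes were higher and 0.634% lower by 40 points. Some list genes passed 40 points with Tmem63b and are not listed.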

How the data were processed

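Read counts per gene were deposited by the authors as whole numbers, without normalization, for 50686 Ensembl genes in 84 neurons. Assignment of reads to genes used featureCounts, per the submitters' processing notes. Its version and strand setting, the aligner, the build and the annotation were not given in the sources used here. No molecular identifiers are named, so amplified copies count more than once. Symbols and coordinates came from GENCODE M21 (GRCm38), and 50376 identifiers matched. CPM, detection at 10 CPM, shares and correlations of log2(CPM + 10) were computed in Python 3.11.15 with numpy 2.4.6, pandas 2.3.3 and scipy 1.17.1. The script was tested on simulated data. Neurons under 5000000 counts (12) were left out. Totals ran from 576966 to 20668832 counts over all 84. The highest correlation between kept neurons was 0.959, and no libraries were identical.

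Neurons are not replicates, so differences were named by size, 40 percentage points, against the share of all genes as far apart. Named genes are the members, those of 18 lists, and the 5 most correlated with each member, some of which are not reported here. Members and lists were chosen with earlier results of these data known. TMM scaling used edgeR 4.0.16 in R 4.3.3. Alternatives are given in the closing section.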

Additional observations from a re-analysis of the deposited data

Results flagged for a closer look

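The 12 neurons left out for depth, with 193 to 3493 genes at 10 CPM, also held member transcripts above the limit that a count of 0 allows. In these neurons Piezo2 stood at 424.8 CPM in AM255, 62.27 CPM in AM290, 166.4 CPM in AM292 and 183.7 CPM in AM301. Tmem63c stood at 116.1 CPM in AM290 and 10.52 CPM in AM301, and Tmem63b at 38.94 CPM in AM255. The Tmem63c value in AM290, from 207 counts, lies above the highest of the 72 neurons used, and the value in AM301 rests on 26 counts. Piezo2 was thus detected in 4 of 12 (33.3%, interval 9.92 to 65.1%), Tmem63c in 2, Tmem63b in 1, and Tmem63a, Tmem150c and Piezo1 in 0.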

How the results depend on the processing

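No paired analysis was possible because the labels give 1 group. Of the alternative values of the main results, 94 stayed within the interval or within 1.5 times and 28 did not. At 1 count or more, the shares were 93.1% for Piezo2 and Tmem63b, 75% for Tmem150c, 69.4% for Tmem63c, 37.5% for Piezo1 and 36.1% for Tmem63a, with 0 neurons lacking all members, 62 with both Piezo2 and Tmem63b, and a Prdm12 difference for Piezo2 of 10 points, where the rule also widened the Prdm12 class from 7 to 22 neurons (7.69 points with the class kept at 10 CPM). At 50 CPM, the shares were 9.72% for Tmem63b, 5.56% for Tmem150c, 2.78% for Tmem63c and 0% for Piezo1, with 36 neurons lacking all members and 4 with both Piezo2 and Tmem63b. The Prdm12 difference for Tmem63b then turned to -10.1 points with the Prdm12 class down to 3 neurons, and to -10.8 points with the class kept at 7. With at least 10000000 counts, 11 neurons lacked all members.

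TMM factors ran from 0.0555 to 2.17, a shift of up to 4.17 on the log2 scale in 1 neuron. With them Piezo1 was at 0% and Tmem150c at 13.9%, the Prdm12 difference for Piezo2 was 54.7 points (8 neurons in the class), and the neurofilament difference for Tmem63b was -27.8 points. In that class of 8 neurons Piezo2 was detected in 8 and Tmem63b in 7, and the Prdm12 difference for Tmem63b was 39.1 points. Without the last run of identifiers, which by construction leaves 27 neurons, Piezo2 was at 63.0%, 5 neurons lacked all members, 10 had both Piezo2 and Tmem63b, and the correlation of Piezo2 with the summed neurofilaments was -0.17 (0.13 over all 72). With 5000 or more genes the shares were 86.8% for Tmem63b, 52.6% for Tmem63c and 50% for Tmem150c, 1 neuron lacked all members, and that correlation was 0.50. The cause of these shifts was not tested. Of the 5 genes most like Piezo2, 3 were shared by rank correlation; for Piezo1, Tmem63a and Tmem63c 0 were. The alternatives for Nefh, Ntrk3 and P2rx2, and those with the Prdm12 class kept, were chosen after seeing the data.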
